A study of Sus scrofa with 12 samples.

Results

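The olfactory receptors are the largest receptor family of mammals, and on the porcine gene array they take 916 of the 25385 transcript clusters tested (3.61%). A transcript cluster is the unit the array reports, a set of probes designed for the same gene or locus. The 916 were all clusters whose gene description in the deposited annotation names an olfactory receptor, a choice that used no measured value. They carried 835 different gene symbols. A further 175 clusters that name an olfactory receptor only in their mRNA text were not counted.

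Olfactory receptors are G protein-coupled receptors of the plasma membrane, encoded by short genes whose coding sequence lies in a single exon. In the nose each olfactory sensory neuron expresses a single receptor gene, which couples through the G protein Golf to adenylyl cyclase 3 and a cyclic nucleotide-gated channel. The genes lie in long arrays of neighbours that arose by repeated duplication, so that neighbours often resemble each other in sequence, and many are pseudogenes. Receptors of class I, here families 51, 52 and 56, resemble those of fish, and the other families belong to class II. Transcripts of single olfactory receptors are also known from tissues outside the nose, usually at low levels.

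Liver RNA of 12 male crossbred piglets, 5 weeks old at the start, was measured with 1 array per pig after 28 days. The 6 pigs of group PIV received 30 mg sodium pivalate per kg body weight and day by mouth, dissolved in NaHCO3 solution, and the 6 pigs of group CON received the NaHCO3 solution alone (0 mg sodium pivalate). Both groups were fed the same diets, low in carnitine. Pivalate is excreted bound to carnitine and thereby lowers the carnitine pool. The pigs were kept in pairs, and since pen and litter were not given in the sources used here, each pig was taken as independent.

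All values are log2 signals as deposited, and the FC is the signed ratio of group PIV to group CON. A cluster passed the filter of the study's methods where its FC exceeded 1.2 up or down and its unadjusted p, here that of limma, was under 0.05. In bulk liver RNA, fewer cells of a type and less RNA per cell cannot be told apart. The arrays of group PIV were numbered after the 6 of group CON, so the effects of order and treatment cannot be told apart either. The array median of all clusters lay between 4.81 and 4.86 in group PIV and between 4.75 and 4.88 in group CON. The array median of the olfactory receptors lay between 2.55 and 2.67 in group PIV and between 2.45 and 2.65 in group CON, and the lowest of all was CON pig K22. Of 853 distinct sets of values, K42 held the highest pig value in 151 (17.7%) and K22 in 24 (2.81%), where an even share among 12 pigs is 8.33%. Pig K22 held the lowest value in 136 sets and K1 in 123, while K42 held it in 31. Signals of the 10 hepatocyte genes lay between 9.38 and 12.86, with albumin at 12.86. The 9 markers of olfactory sensory neurons lay between 3.22 and 5.49. Their mean per pig lay between 4.24 and 4.49 in group PIV and between 4.20 and 4.60 in group CON. Genes without their symbol in the annotation, such as the channel ANO2, were taken by protein name. The olfactory marker protein OMP had 5.50 ± 0.12 in group PIV and 5.48 ± 0.14 in group CON (SD, n = 6 each).

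The olfactory receptor clusters were short, dim and often built on few probes. The median span was 939 bases (528 to 13392), close to the size of a single coding exon. The median number of probes was 15, against 25 for the other clusters. Cross-hybridisation type 3, which marks probes that also match other transcripts, was assigned to 378 of them (41.3%), against 12.4% of the other clusters. The remaining 538 were of type 1, that is, unique. By strand, 430 lay on the plus and 486 on the minus strand. In RefSeq (assembly Sscrofa11.1), 796 of the clusters matched a gene record, 701 of them protein coding and 95 pseudogenes, while 120 had no record. The median signal was 2.60 for protein-coding genes and 2.49 for pseudogenes.

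Signal and spread differed with the number of probes. The median log2 signal was 2.21 in 126 clusters with under 10 probes, 2.47 in 544 with 10 to 19 probes and 2.92 in 246 with 20 or more. The spread between pigs, given as the pooled SD within groups, ran the other way, with medians of 0.299, 0.232 and 0.177 in the same order. The other clusters of the array showed the same order of spread, with medians of 0.293, 0.213 and 0.171 at signals of 3.66, 4.40 and 5.02. At equal probe number, with both types together, the olfactory receptors were thus dimmer than the other clusters by over 1 log2 unit, with medians of the pooled SD that differed by at most 0.02. Within type 3 the gap in signal was smaller under 10 probes (2.60 against 3.29) and with 10 to 19 (2.71 against 3.34). The pooled SDs differed most within type 1 at 20 or more probes (0.203 against 0.171). Type 3 clusters had a median signal of 2.88, against 2.39 for type 1. Probe number and type are linked in this family, because 75.6% of the clusters with 20 or more probes were of type 3, against 25.2% of those with 10 to 19. Within 20 or more probes the median signals of type 3 (2.93, n = 186) and type 1 (2.82, n = 60) lay closer together than over all classes. The difference remained in the other classes, with 2.60 (n = 55) against 2.05 (n = 71) under 10 probes. With 10 to 19 probes it was 2.71 (n = 137) against 2.41 (n = 407).

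**Figure D1:**
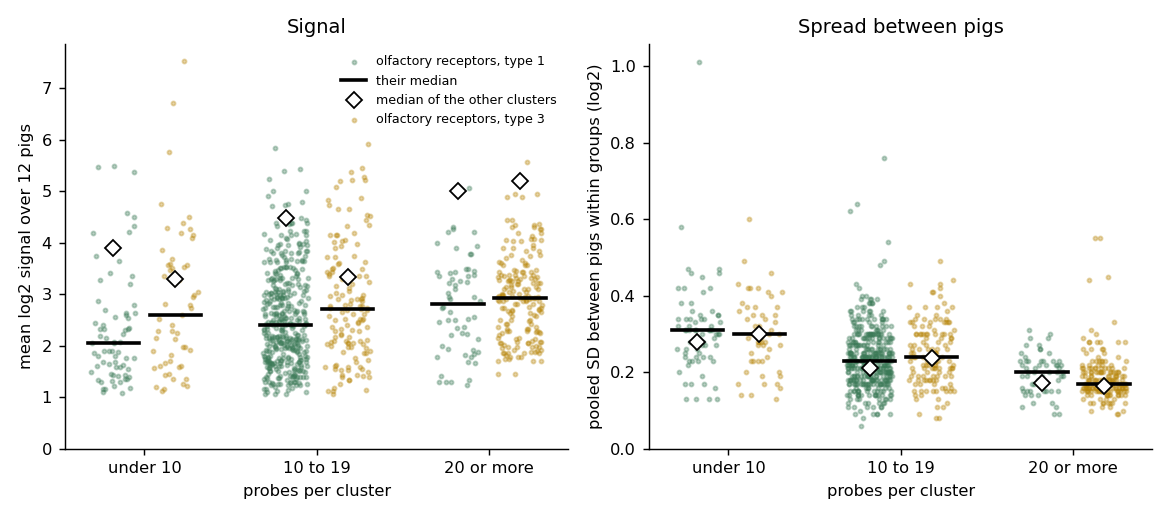
Mean log2 signal over 12 pigs (left) and pooled SD between pigs within groups on the log2 scale (right) of each olfactory receptor cluster, by number of probes and cross-hybridisation type. Points are clusters, bars their medians and diamonds the medians of the other clusters of the same class. In all classes the olfactory receptor median lies below that of the other clusters in signal, and the spread falls with the number of probes in both.

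Shared values were frequent. In 61 pairs and 1 triple of clusters the signals were identical on all 12 arrays, which involved 125 olfactory receptor clusters (13.6%), against 3.48% of the other clusters. All 62 sets were of type 3, had equal probe numbers of 20 or more, and 61 carried a single gene symbol, so these were single named receptors placed at different positions. Of these sets 59 lay on 1 chromosome, with a median distance of 159 kb (5.31 to 760 kb). Of 58 such pairs, 41 lay on opposite strands and 17 on the same strand. On chromosome 7, 6 receptors between starts 26093520 and 26462458 recurred in reverse order, with 217 to 369 kb between the copies. On chromosome 9, 4 receptors between starts 3388970 and 3679745 recurred in the same order at 204 to 209 kb, and on chromosome 7, 3 receptors between 22966690 and 23119225 recurred at a constant 107 kb. Positions are those of the array annotation, whose build was not given in the sources used here. These duplicates do not count as separate measurements, and none of the 62 sets passed the filter. The counts, shares and medians by class still include every cluster, so those with 20 or more probes and of type 3 hold these repeats. With 1 cluster per set of values, 36 of 853 passed (4.22%), at a median signal of 2.52 and a median pooled SD of 0.226. The largest spread among the 62 sets, a pooled SD of 0.55, belonged to olfactory receptor 10J5 (LOC100517340) on chromosome 4, with 25 probes. It was singled out after its values were seen. Its signal lay between 2.59 and 3.64 in group PIV and between 2.75 and 4.27 in group CON, where K3 and K23 (3.83) were the highest.

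The chromosomes differed in number and in level. Chromosomes 2, 9 and 7 held 249, 197 and 194 clusters, chromosome 1 held 87 and chromosome 5 held 64. The median signal was 2.19 on chromosomes 2 and 5, 2.43 on chromosome 7, 2.73 on chromosome 1 and 2.95 on chromosome 9. Among the chromosomes with at least 10 clusters, chromosome 15 had the highest median (4.44, n = 10) and chromosome 13 the lowest (1.35, n = 10), where no cluster exceeded 1.90. The share of type 3 was 69.1% on chromosome 7 and 27.3% on chromosome 2. By family, the median signal was highest in family 51 (3.37, n = 42) among families with at least 10 clusters and lowest in family 5 (1.85, n = 52). The 118 clusters of class I, all on chromosome 9, had a median of 3.18, against 2.48 for the 702 of the other numbered families. In 96 the description held no family number of this kind.

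Among the brightest clusters, the signal did not separate the groups. Olfactory receptor 51V1-like (LOC100626951, chromosome 9, 8 probes, type 3) had the highest mean, 7.54. It ranged from 7.31 to 7.78 in group PIV (median 7.56) and from 7.28 to 7.71 in group CON (median 7.54), so the groups overlapped nearly fully. Olfactory receptor 13A1-like (LOC100627357, chromosome 14, 8 probes, type 3) averaged 6.69 ± 0.07 in group PIV and 6.76 ± 0.26 in group CON (SD, n = 6 each). Next came a pseudogene, 12D2-like (LOC100626985, mean 5.93), then 52M1-like (LOC100516094, 5.85), 6C74-like (LOC102166449, 5.77), 4X1-like (LOC100524068, 5.57), 1L4 (LOC100524066, 5.50) and 1052-like (LOC100513516, 5.47). Their log2 FCs, also those of 51V1-like and 13A1-like, lay between −0.08 and 0.24, and none of the 8 passed the filter. Of the 8, 5 had under 10 probes and 5 were of type 3. The nearest cluster outside the 916, in the case of 1052-like 1 that names an olfactory receptor in its mRNA text, was dimmer in 7 of the 8 (2.01 to 3.86). The exception was TRIM68, a tripartite motif protein, with 6.36 at 89.0 kb from 52M1-like. In 22 olfactory receptor clusters 6 or more pigs reached a log2 signal of 5 (2.40%), against 48.1% of the other clusters. Of the 895 with a mean below 5, 35 passed the filter described above (3.91%), against 2.15% of all such clusters.

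In the receptors with the largest spread, single pigs of both groups stood apart from the rest. Olfactory receptor 6C2-like (LOC100153110, chromosome 5, 9 probes, type 1) had a pooled SD of 1.01. It reached 4.13 in PIV pig P50 and 3.01 in CON pig K42, while the other 10 pigs lay between 1.01 and 1.40. Its neighbours at 8.4 and 15.8 kb, 6C75-like and another 6C2-like (LOC100154323), kept within 1.07 to 2.18 and 2.16 to 2.84. Olfactory receptor 51E1 (LOC100737531, chromosome 9, 17 probes, type 1), whose human counterpart is known from the prostate, had a pooled SD of 0.76. Its signal was 5.96 in PIV pig P29 and 4.23 to 5.22 in the other PIV pigs, and 6.15 and 6.02 in CON pigs K3 and K4 and 4.09 to 4.86 in the other CON pigs. The group means were 5.01 ± 0.61 in group PIV and 4.99 ± 0.89 in group CON (SD, n = 6 each; exact permutation test, two-sided, p = 0.946).

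Of the next most variable receptors, 2 were neighbours at the start of chromosome 9. Olfactory receptor 10A6 (LOC100736745, 17 probes, type 1) ranged from 4.56 to 6.24 in group PIV (median 5.66) and from 4.67 to 6.32 in group CON (median 5.09). Olfactory receptor 10A3-like (LOC100520502, 16 probes, type 1), 32.8 kb before it, ranged from 2.32 to 3.84 in group PIV (median 2.82) and from 2.21 to 4.13 in group CON (median 2.72). CON pig K23 was the highest in both. On the other side, olfactory receptor 10A3 (LOC100736607, 12 probes, type 1), 11.9 kb away, had a mean of 5.39 and a correlation with 10A6 of 0.76 across the 12 pigs, against 0.50 between 10A6 and 10A3-like. These 3 open a run of 12 receptors on chromosome 9, none of which passed the filter. The median pooled SD of the run was 0.320, against 0.221 over all members of the family. Olfactory receptor 4F15-like (LOC100514909, chromosome 7, 8 probes, type 3) ranged from 2.55 to 4.22 in group PIV and from 2.20 to 3.82 in group CON. The permutation tests of these 5 variable receptors gave p-values between 0.433 and 0.946 (exact, two-sided).

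**Figure D2:**
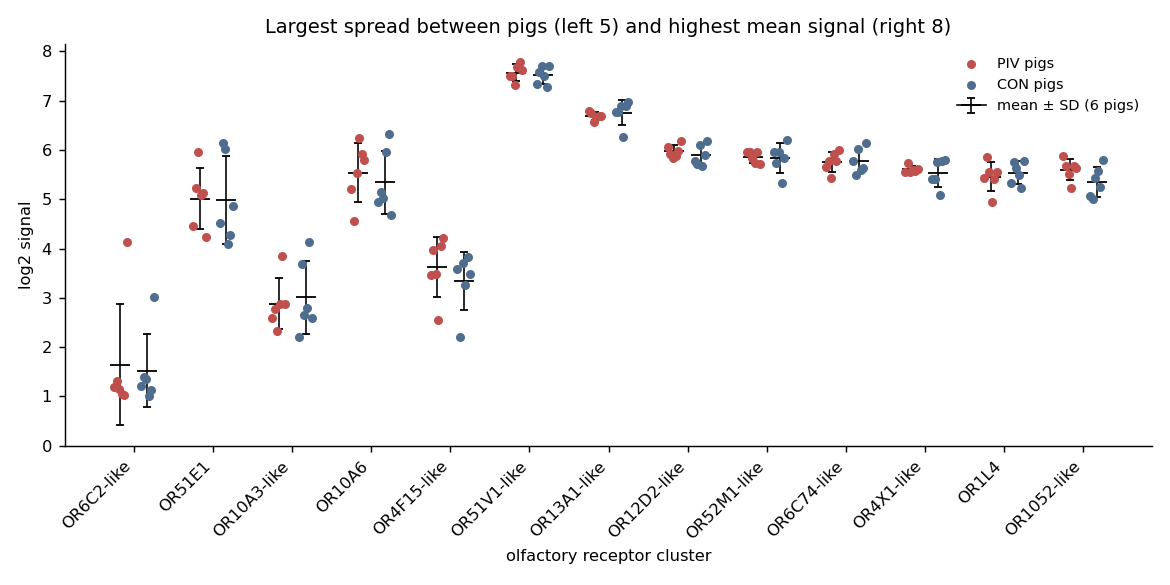
Log2 signal by pig of the 5 olfactory receptor clusters with the largest pooled SD (left) and of the 8 with the highest mean (right). Points are pigs of group PIV (left of each pair) and group CON (right), and black marks give mean ± SD of 6 pigs. P50 and K42 stand alone in 6C2-like at 4.13 and 3.01, and both groups overlap in all 13.

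Between the groups, the differences of the olfactory receptors were small and none passed after adjustment. Of all clusters tested, 1.82% passed the filter, 1.03% being higher and 0.788% lower in group PIV. Of the 916 olfactory receptors, 36 passed (3.93%), 26 being higher in group PIV (2.84%) and 10 lower (1.09%). After Benjamini-Hochberg adjustment over all 25385 clusters, 0 olfactory receptors and 0 clusters in all passed at 0.05, with lowest adjusted p-values from limma of 0.9996 and 0.788. At an unadjusted p under 0.05 from limma without regard to FC, 57 olfactory receptors passed (6.22%, against 3.63% of all clusters). With the methods' t-test in place of limma 20 passed (2.18%, against 1.18% of all clusters). When all array medians were set equal 33 passed, 20 higher and 13 lower, so the share of higher calls (72.2%) was 60.6% on that scale. The median log2 FC over the 916 was 0.018, against 0.006 over all clusters, and it was 0.001 against −0.011 with equal medians. The differences were positive in 56.1% of the olfactory receptors and in 52.3% of all clusters.

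Few probes went with more clusters past the filter in the whole table. With under 10 probes 6 of 126 olfactory receptors passed (4.76%), against 6.18% of all clusters in that class. With 10 to 19 probes 26 of 544 passed (4.78%, against 3.54%), and with 20 or more 4 of 246 (1.63%, against 1.25%). Under 10 probes and with 20 or more, the counts of 6 and 4 were small and the shares lay near those of all clusters. With 10 to 19 probes the share lay above that of all clusters, a difference that was not tested. By type, 28 of 538 unique clusters passed (5.20%, against 1.69% of all type 1 clusters) and 8 of 378 of type 3 (2.12%, against 2.67%). Probe number differs between these type 1 sets. Within type 1, 5.63% passed under 10 probes, against 5.14% of the other clusters. With 10 to 19 probes it was 5.16% against 3.00%, and with 20 or more 5.00% (3 of 60) against 1.27%. A FC above 1.2 at any p was found in 64 olfactory receptors (6.99%, against 3.49% of all clusters). By probe number these were 16 with under 10 (12.7%, against 16.3%), 42 with 10 to 19 (7.72%, against 6.63%) and 6 with 20 or more (2.44%, against 2.20%). The 36 had mean signals between 1.24 and 5.37 (median 2.75), and their FCs ranged in size from 1.20 to 1.50. In the exact permutation test 19 of them had an unadjusted p under 0.05 and 17 did not, with p between 0.00433 and 0.0996. The smallest p that 924 assignments of the pigs allow is 0.00216. The 36 were picked by the limma p on the same signals. These permutation p-values, also those given below for single receptors past the filter, therefore add no independent evidence.

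The receptor with the largest positive difference was 7D2-like (LOC102161660, chromosome 2, 9 probes, type 1). Its signal ranged from 2.43 to 3.27 in group PIV (median 2.82) and from 2.01 to 2.78 in group CON (median 2.16). Of the PIV pigs 3 lay above the highest CON pig, K1, and the other 5 CON pigs lay at or below 2.45. The log2 FC was 0.59 (SE 0.15; exact permutation test, p = 0.0152). Next was 5V1-like (LOC100158167, chromosome 7, 20 probes, type 3), with 3.66 to 4.43 in group PIV (median 3.98) and 3.00 to 3.92 in group CON (median 3.53). Its log2 FC was 0.49 (SE 0.15; exact permutation test, p = 0.0173), with 3 PIV pigs above all CON pigs. Both passed the filter without any single pig as well.

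The other receptors with the highest differences past the filter had log2 FCs between 0.37 and 0.41. Among them, the RefSeq pseudogene 56B2 (LOC100522693, chromosome 9) had 3.51 to 4.21 in group PIV and 3.20 to 3.64 in group CON, with 5 of 6 PIV pigs above all CON pigs (exact permutation test, p = 0.00866). Receptor 51F2-like (LOC102165149, chromosome 9) averaged 2.91 ± 0.29 in group PIV and 2.52 ± 0.18 in group CON (SD, n = 6 each). Both also passed without any single pig. The filter was missed without K23 or P31 by 6C3-like (LOC100154757, chromosome 5) and without K23 or K42 by 51H1-like (LOC100513557, chromosome 9). Receptor 4D2-like (LOC100513817, chromosome 12) missed it without K1, K4, K22, K42, P10, P31 or P50, and 7A10-like (LOC100626456, chromosome 2) without K3, K4, K22, K42, P12, P29, P31 or P50. With the methods' t-test 6C3-like, 4D2-like and 7A10-like missed it as well, and the other 5 of the 8 highest passed. After quantile normalization applied again 4D2-like and 7A10-like missed it too, as did 4D2-like with array weights and 7A10-like with equal array medians. In 7A10-like, 4 PIV pigs lay above all CON pigs and P30 (2.05) below all of them.

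Among the receptors that were lower in group PIV, 5K3-like (LOC100157439, chromosome 13, 9 probes) had the largest difference. Its signal was 1.17 to 2.02 in group PIV (median 1.70) and 1.65 to 2.68 in group CON (median 2.04), a log2 FC of −0.42 (SE 0.18; exact permutation test, p = 0.0823). It missed the filter without K3, K23, K42, P30 or P50. Receptor 52N4-like (LOC100523809, chromosome 9) followed with a log2 FC of −0.38 and 3 PIV pigs below all CON pigs. Receptor 2G3-like (LOC100154493, chromosome 7) averaged 1.36 ± 0.14 in group PIV and 1.72 ± 0.34 in group CON (SD, n = 6 each). Together with 140-like (LOC100522543, chromosome 2, log2 FC −0.35) and the pseudogene 1L1-like (LOC100523301, chromosome 1, −0.35) it passed without any single pig. Receptors 2A12-like (LOC100521802, chromosome 6, −0.36), 4K2-like (LOC100525650, chromosome 7, −0.34) and 52B2 (LOC100514118, chromosome 9, −0.33) passed as well. In 4K2-like, 4 of 6 PIV pigs lay below all CON pigs, which kept between 2.58 and 3.02. Each of 52N4-like, 2A12-like, 4K2-like and 52B2 missed the filter in 5 or 6 of the 12 fits without 1 pig. For 52N4-like these were the fits without K3, K4, K42, P10 or P12, and for 2A12-like those without K4, K23, K42, P12 or P29. For 4K2-like they were those without K4, K22, P12, P30 or P50, and for 52B2 those without K1, K4, K42, P12, P29 or P50. With the methods' t-test 5K3-like, 52N4-like, 2A12-like, 4K2-like and 52B2 missed the filter, so that 3 of the 8 passed with both tests.

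**Figure D3:**
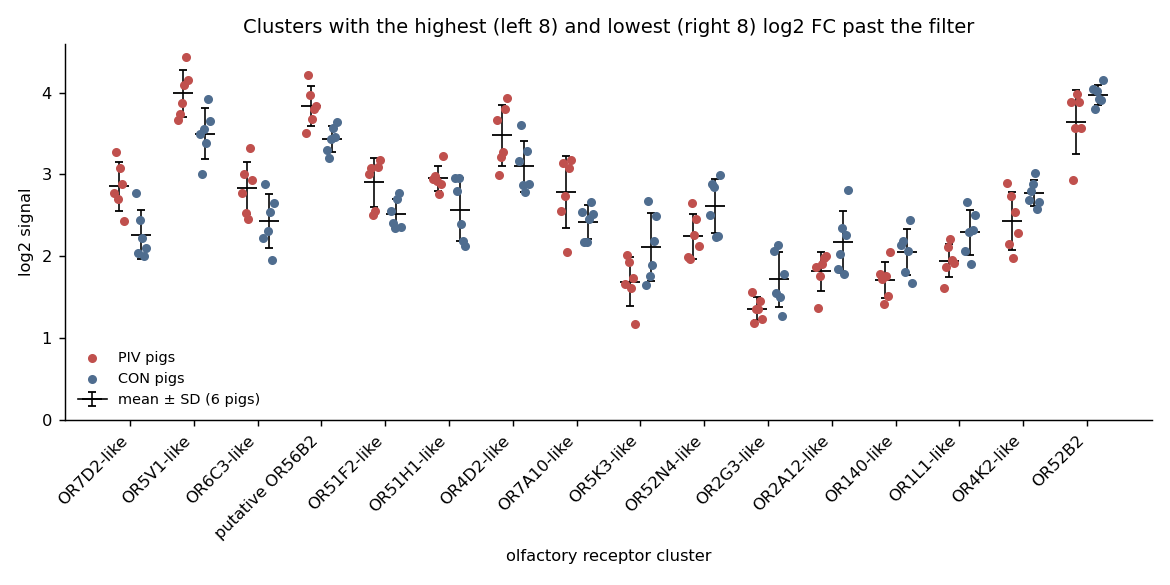
Log2 signal by pig of the 16 olfactory receptor clusters past the filter with the most positive (left 8) and the most negative (right 8) log2 FC. Points are pigs of group PIV (left of each pair) and group CON (right), and black marks give mean ± SD of 6 pigs. The groups overlap in all 16, with 5 of 6 PIV pigs above all CON pigs in 56B2 and 4 of 6 PIV pigs below all CON pigs in 4K2-like.

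Groups without any overlap were found in 3 olfactory receptor clusters (0.328%), against 0.158% of all clusters, and 2 of the 3 shared their values. Olfactory receptor 2W1 (LOC100525053, chromosome 7, 11 probes) lay between 1.41 and 1.59 in group PIV and between 1.24 and 1.38 in group CON. Its log2 FC of 0.16 was under the threshold of the filter, and its signal was near the bottom of the scale. The 2 identical clusters of 2AG1-like (LOC100738602, chromosome 9, 25 probes, type 3) lay between 4.94 and 5.12 in group PIV and between 4.37 and 4.91 in group CON, where K1 was the lowest and the other CON pigs lay at 4.77 or above. The log2 FC of 0.25 was just under the threshold, and the exact permutation test gave p = 0.00216 for both receptors, the smallest p it can give. These receptors were picked because their groups did not overlap, so this p adds nothing to that.

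The position along the chromosomes was examined with runs of neighbours at most 100000 bases apart. The 916 clusters fell into 117 runs, of which 27 held a single receptor and 24 held 10 or more, with 595 receptors in those 24. In the runs 799 pairs were adjacent, with a median gap of 18394 bases, and 497 of them (62.2%) lay on the same strand. The log2 FC had the same sign in 402 adjacent pairs (50.3%), where 50.7% follows from the share of positive differences alone. The correlation across the 12 pigs had a median of 0.08 over the 795 adjacent pairs with non-identical values (quartiles −0.14 and 0.30), against 0.06 over all pairs. After the array medians were removed it was 0.03 against 0.01. It was 0.07 in 338 adjacent pairs of which both were of type 1 and 0.11 in 213 of which both were of type 3. Above 0.8 lay 12 pairs, of which 10 were of type 3 on both sides. These points share the same 12 arrays, and a correlation in dim clusters is a description only.

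The longest run lay on chromosome 9 (chr9:2847436-4759921) and held 105 receptors over 1910 kb, 104 of them of class I. The beta globin genes HBB and HBE1 lie within it, with signals of 3.96 ± 0.45 and 4.04 ± 0.20 in group PIV and 3.96 ± 0.12 and 4.11 ± 0.24 in group CON (SD, n = 6 each). In the run the median signal was 3.17, the median pooled SD 0.218 and the median log2 FC 0.025. A FC above 1.2 was found in 11 of the 105, and all 11 passed the filter (10.5%, against 1.82% of all clusters), 9 being higher and 2 lower. The median number of probes in the run was 17. Of all clusters with 10 to 19 probes 3.54% passed, and of the 916 olfactory receptors 3.93%. Of the 66 receptors in the first 1000 kb, 4 passed, of which 52B2 and 52N4-like were lower and 56B4-like (LOC100520039, log2 FC 0.27) and 56B2 were higher. Of the 39 beyond, 7 passed, against the same 1.82% of all clusters, and all 7 were higher in group PIV. The division at 1000 kb was not planned and was made with the values known, so these counts are a description.

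These 7 were 52M1-like (LOC106508264), 52E2-like (LOC100521140), 51G1 (LOC100737856), 51G2 (LOC100737900), 51H1-like, 52R1 (LOC100514119) and 51F2-like, spread over 1285 to 1687 kb from the start of the run. Their log2 FCs lay between 0.28 and 0.39. Receptors 51G1 and 51G2 are neighbours with 8167 bases between them. Receptor 51G1 averaged 3.40 ± 0.18 in group PIV and 3.07 ± 0.25 in group CON, and 51G2 averaged 4.07 ± 0.31 in group PIV and 3.75 ± 0.16 in group CON (SD, n = 6 each). Their correlation across the 12 pigs was 0.29. Receptors 52M1-like and 52E2-like, with 74205 bases between them, were the other adjacent pair in which both passed. In 52M1-like 4 PIV pigs lay above all CON pigs, whose lowest value was that of K1 (3.13), and without K1 it missed the filter. Receptor 51G1 missed it without K4 and 52R1 without P12. Receptor 51G2 missed it without K4, K23, P30 or P50, and 56B4-like and 52E2-like each missed it in 6 of the 12 fits without 1 pig, K1, K22, K23, P12 and P31 in both and P29 in the first and P50 in the second. With the methods' t-test 52E2-like missed it too, so that 6 of the 7 passed beyond 1000 kb, and in the first 1000 kb 52B2 and 52N4-like missed it. Receptor 52E2-like also missed it with array weights and after quantile normalization applied again.

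**Figure D4:**
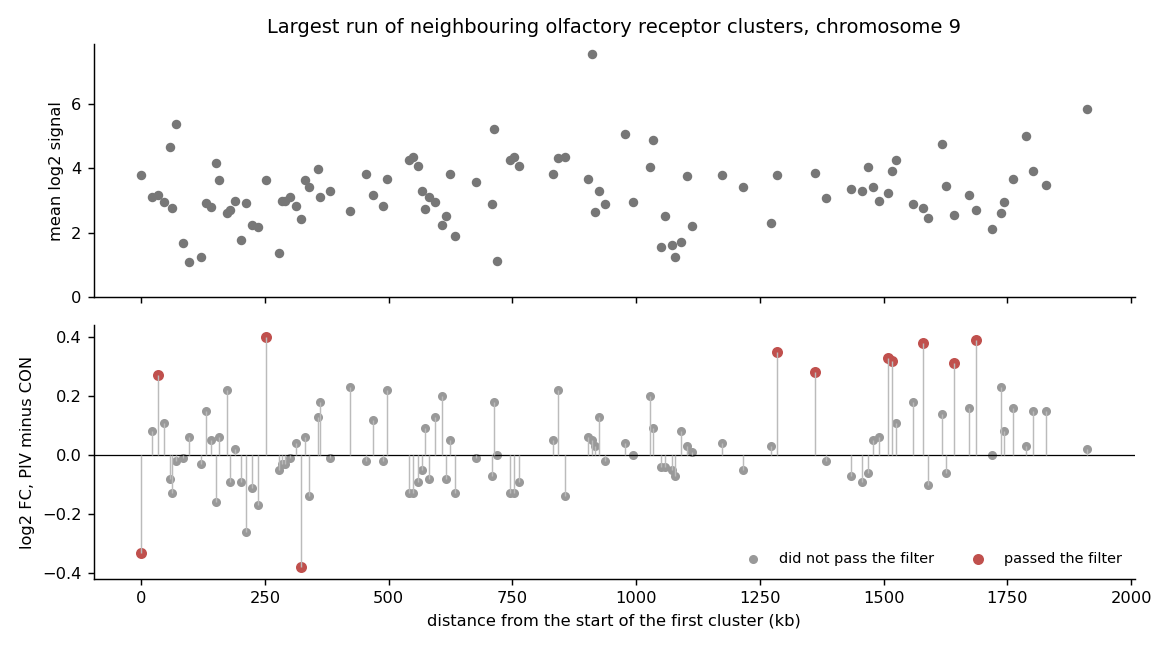
Mean log2 signal over 12 pigs (top) and log2 FC, group PIV minus group CON (bottom), of the 105 olfactory receptor clusters of the longest run on chromosome 9, by distance in kb from the start of the first. Each point is 1 cluster, and red points passed the filter. The 7 that passed beyond 1000 kb, a limit chosen with the values known, are all positive, among neighbours on both sides of 0.

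Within 1000000 bases of the globin genes lay 98 olfactory receptors. Of these, 8 were higher and 1 was lower past the filter (9.18%, against 1.82% of all clusters). By family, 4 of 42 in family 51 passed (9.52%) and all 4 were higher. In family 52, 5 of 65 passed (7.69%), 3 higher and 2 lower. In family 56, 2 of 11 passed (18.2%) and were higher. In class I as a whole 11 of 118 passed (9.32%), against 24 of 702 in the other numbered families (3.42%) and 1.82% of all clusters. Of all clusters with 10 to 19 probes 3.54% passed, and the median number of probes in class I was 17. These 11 are the same clusters as the 11 of the longest run. The counts near the globin genes and by family are drawn from them too, so these are not separate observations. No receptor of class I outside that run passed, so class and position cannot be told apart. Chromosome 9 outside class I held 79 receptors, of which 1 passed (1.27%, against 1.82% of all clusters). The difference between class I and the other families was not tested, since members share arrays and probes. The next longest run, on chromosome 2 (chr2:136897765-138300965), held 82 receptors with a median signal of 2.09. Of these, 3 passed (3.66%, against 1.82% of all clusters), 2 higher and 1 lower. A run of 41 on chromosome 9 (chr9:49150011-50238913) had 1 that passed (2.44%). Chromosome 5 held 4 that passed, all higher and all among its 40 receptors of the 6C subfamily. This was 10.0%, against 1.82% of all clusters and 3.93% of the 916 olfactory receptors. In the 6C subfamily as a whole these were 4 of 48 (8.33%). The subfamily was picked out after the 4 had been seen, so these shares are a description. Beside 6C3-like these were 6C6 (LOC100156296, log2 FC 0.31), 6C68-like (LOC100627212, 0.33) and a second 6C2-like (LOC100524678, 0.36), which were named after their values were seen. The brightest of them, 6C68-like, averaged 4.61 ± 0.26 in group PIV and 4.28 ± 0.34 in group CON (SD, n = 6 each; exact permutation test, p = 0.0996).

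Of 19 listed genes that act downstream of the receptors in the nose 18 were measured, with signals from 3.17 to 8.74, and 1 passed the filter, against 1.82% of all clusters, and was lower in group PIV. It was described as the phosphodiesterase PDE1C (LOC100525902, chromosome 18, 23 probes, type 1), which breaks down cyclic nucleotides in the cilia of olfactory neurons. Its signal ranged from 3.33 to 4.31 in group PIV (median 3.59) and from 3.41 to 4.45 in group CON (median 4.35). In 5 of 6 PIV pigs it lay at or below 3.70, with P50 at 4.31, and in 5 of 6 CON pigs at or above 4.28, with K23 at 3.41. The log2 FC was −0.54 (SE 0.18; exact permutation test, p = 0.0519). It passed the filter without any single pig and with the methods' t-test, but not after adjustment over all clusters. A second cluster described as PDE1C-like (LOC102163860) had 1.92 ± 0.18 in group PIV and 1.90 ± 0.20 in group CON (SD, n = 6 each) and did not pass. The alpha subunit of Golf was measured by a cluster described as G(olf) alpha-like, with 3.85 ± 0.18 in group PIV and 3.78 ± 0.22 in group CON (SD, n = 6 each). Adenylyl cyclase 3 (ADCY3) averaged 4.31 ± 0.34 in group PIV and 4.34 ± 0.15 in group CON, and the channel subunit CNGA2 averaged 3.98 ± 0.10 in group PIV and 4.09 ± 0.26 in group CON (SD, n = 6 each). The next smallest limma p of the list belonged to the arrestin ARRB2, with 6.23 ± 0.11 in group PIV and 6.10 ± 0.12 in group CON, a log2 FC of 0.13. All 10 genes of receptor trafficking and receptor choice were measured and 0 passed. The transporting protein RTP1, which brings olfactory receptors to the cell surface, had 3.81 ± 0.14 in group PIV and 3.79 ± 0.20 in group CON (SD, n = 6 each). In that list EBF1, a transcription factor of olfactory neurons, had the smallest limma p, with 4.86 ± 0.17 in group PIV and 4.70 ± 0.21 in group CON, a log2 FC of 0.15.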

How the data were processed

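The authors hybridised liver RNA of each pig to an Affymetrix Porcine Gene 1.0 ST array and applied background correction, normalization across arrays and summarisation with RMA (Expression Console 1.4 according to the submitters' processing notes). What they deposited are log2 signals, 1 per cluster and pig. The authors' own ratios and p-values in the sheet were not used. No raw intensities were analysed here, so background and probe effects could not be varied.

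The 3 ribosomal RNA clusters were left out. For the difference of PIV minus CON, limma 3.58.1 was run in R 4.3.3 (lmFit, eBayes) on 25385 clusters. For single values an exact permutation test over 924 assignments was added. Scripts were tested on simulated data. Names, positions, probe numbers and types came from the deposited annotation, and biotypes from RefSeq. The rule for the members used no measured value, but it and the gene lists were set with earlier results of these data known.

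Named receptors were the 8 highest and 8 lowest log2 FCs past the filter, the 8 brightest, the 5 with the largest pooled SD, 2 that the study names, and those past the filter in the longest run. Others, such as 10J5, 10A3, 2W1 and 2AG1-like, were chosen after their values were seen. Alternatives were other tests, normalizations, filters, memberships, neighbour distances and leaving out each pig. The number of arrays limits the precision.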

Additional observations from a re-analysis of the deposited data

Results flagged for a closer look

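For the named receptors and the array medians, 74 sets of 6 values were examined for a single pig far from the other 5, and 7 were found. Chance gives about 1 in 20, but 4 of the 7 lay in the 5 receptors chosen for the largest pooled SD, which a single pig far from the others raises, so the count cannot be read against that share. In 6C2-like (LOC100153110) PIV pig P50 had a log2 signal of 4.13 and the other PIV pigs 1.03 to 1.31, and CON pig K42 had 3.01 and the other CON pigs 1.01 to 1.40. In 10A3-like (LOC100520502) P31 had 3.84 and the other PIV pigs 2.32 to 2.87. In 4F15-like (LOC100514909) K3 had 2.20 and the other CON pigs 3.26 to 3.82. In 13A1-like (LOC100627357) K22 had 6.26 and the other CON pigs 6.77 to 6.97. In 4X1-like (LOC100524068) P12 had 5.74 and the other PIV pigs 5.55 to 5.62. In 52R1 (LOC100514119) K22 had 2.69 and the other CON pigs 2.28 to 2.42. Over all 916 olfactory receptors, such a pig was found in 49 within group PIV and in 70 within group CON.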

How the results depend on the processing

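Of the 916 olfactory receptors, 36 passed the filter, 26 higher and 10 lower in group PIV. The methods' t-test gave 20 (15 higher, 5 lower), no FC threshold gave 57 (40 higher, 17 lower), a FC above 1.5 gave 1 (1 higher, 0 lower), and a log2 signal of at least 5 in 6 pigs left 22 receptors, of which 1 passed (1 higher, 0 lower). Of all 25385 clusters 462 passed, and the methods' t-test gave 300, no FC threshold 921 and a FC above 1.5 gave 25. The signal limit left 11789 of all clusters, of which 161 passed. Without 1 pig the count of receptors lay between 32 and 49 (20 to 38 higher, 5 to 16 lower). The count over all clusters lay between 427 and 705 in the same fits, and both counts were highest without K42. The receptors lower in group PIV numbered 16 without K1 and 5 without K4. With quantile normalization applied again 34 passed, 21 higher and 13 lower. The median log2 signal of 2.57 was 2.39 over type 1 alone. The median pooled SD of 0.221 was 0.212 after quantile normalization or with equal medians, 0.232 over type 1, 0.211 with 10 or more probes and 0.211 with the clusters named only in the mRNA text, the last being added after seeing the data. It lay between 0.214 and 0.223 without 1 pig, and the median log2 FC between 0.002 and 0.047. Of 396 repeats of the 22 named fold changes none changed sign and 81 missed the filter, and 7 receptors passed in every repeat. The 22 were chosen for passing the filter in these data. The methods' t-test and the variance trend leave the log2 FC as it is, so the lack of sign changes carries little weight. With the methods' t-test 13 of the 22 passed, and 56B4-like passed with it but missed after quantile normalization or with equal medians. Array weights, variance trend, 1 cluster per symbol, the series value table and 1 cluster per value set (added after seeing the data) left the counts within 1.5 times. No description names a pseudogene, so that alternative changed nothing. The share of neighbours with differences of the same sign lay between 47.3% and 50.3% under all alternatives tried. No paired analysis was possible because the labels give no number that pigs of both groups share. Signals this dim cannot be set against a measured background here.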

Other observations

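Other chemoreceptors of the array were dim as well. The 26 clusters of vomeronasal (7), taste (11) and trace amine-associated receptors (8) had a median log2 signal of 2.26, against 2.57 for the olfactory receptors. With limma 0 of the 26 passed the filter, against 1.82% of all clusters. At an unadjusted limma p under 0.05 there were 2 of the 26, against 3.63% of all clusters. These were the bitter taste receptor TAS2R10 (LOC100522675; 1.86 ± 0.18 in group PIV and 1.60 ± 0.19 in group CON, SD, n = 6 each; exact permutation test, p = 0.0346) and vomeronasal type-2 receptor 116-like (LOC102157462; 2.76 ± 0.19 in group PIV and 2.53 ± 0.15 in group CON, SD, n = 6 each; exact permutation test, p = 0.039). The brightest was taste receptor type 2 member 143-like (LOC100625927), with 5.74 ± 0.12 in group PIV and 5.66 ± 0.19 in group CON (SD, n = 6 each). All 26 were of type 1, and their median number of probes was 22, against 15 for the olfactory receptors. The log2 difference was positive in 19 of them (73.1%), with a median of 0.06. Over all clusters it was positive in 52.3%, with a median of 0.006. Among clusters other than the olfactory receptors with a signal of 2 to 3 it was positive in 56.4%.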
